A study of Mus musculus with 6 samples.

Results

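The 5 genes Rasgrp3, Scel, Limch1, Flrt2 and Galnt18 are considered here in fetal mouse testicular interstitial cells, together with the paralogs Rasgrp1, Rasgrp2, Flrt3 and Galnt1. The 5 genes were chosen because they were strongly lower in the SAG libraries than in the DMSO libraries, so their values in this contrast chose them and are given as a description without a test. The 4 paralogs were added by kinship, for contrast. The 9 genes were taken from 24413 gene rows, and 8 of the 9 were among the 12550 genes tested, Rasgrp1 being too low. The cells, named W-EGFP, came from E16.5 testes of FLE-EGFP mice, a line whose EGFP is under the control of the Nr5a1 fetal Leydig enhancer. Each sample held 10000 cells exposed for 1 hour to 0.5 µM SAG, a Smoothened agonist that switches on Hedgehog signalling, or to its vehicle DMSO, and RNA-seq gave 3 libraries per group. Column names of both groups carry the element siCnt, which the labels do not explain, so whether all the cells had received a control siRNA is not stated. Whether the replicates came from separate cultures or animals is not stated, so p-values measure only the spread among these libraries, which may be technical.

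The 5 genes work in different parts of the cell. RASGRP3 is a guanine nucleotide exchange factor that loads Ras and Rap proteins with GTP and is drawn to membranes by diacylglycerol, the lipid that phospholipase C releases. Sciellin, the product of Scel, is a LIM domain protein known as a precursor of the cornified envelope of stratified epithelia, and LIMCH1 carries a LIM and a calponin homology domain and is known from human cells as an activator of non-muscle myosin II. FLRT2 is a transmembrane protein with leucine-rich repeats that binds UNC5 receptors and latrophilins on neighbouring cells and takes part in cell adhesion and axon guidance. GALNT18 belongs to the polypeptide N-acetylgalactosaminyltransferases, the Golgi enzyme family that starts mucin-type O-glycosylation of proteins.

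Levels are given as the deposited signal, a scaled CPM, with ± for the SD of a group (n = 3 libraries). The recovered depth was 18486396 to 25491259 reads in the DMSO libraries and 7694479 to 8804335 in the SAG libraries, a ratio of 2.67 between the group means, so 1 read was worth a signal of 0.0414 to 0.0564 with DMSO and 0.106 to 0.128 with SAG. Gli1, a direct Hedgehog target, was 58.6-fold higher with SAG. SAG replicate 3 stood apart from the other SAG libraries: its share of reads on Rn45s, a ribosomal RNA, was 1.67% where the other libraries had 0.326% to 0.360%, and its spike-in reads and fetal Leydig marker sum were the highest. Of the 8 interstitial progenitor markers, all tested, 6 were called higher and 1 lower by the limma rule given with the paralogs, which called 12.9% of all genes tested higher and 16.6% lower, and their summed signal was 474 to 496 with DMSO and 934 to 1101 with SAG. The 8 markers of peritubular myoid and smooth muscle cells were all called lower, with sums of 22517 to 23488 against 14133 to 15798. That count was 5 without any 1 of the DMSO replicates, without SAG replicate 1, with scaling by library totals or with limma without trend. It was 3 with no filter. The lower count over all genes tested moved too, from 2084 to between 1086 and 1136 without 1 DMSO replicate. It was 1259 with library totals and 1837 to 1949 under the other settings named. Sums of endothelial markers were 125 to 130 against 71.7 to 105, of surface epithelial markers 36.6 to 52.9 against 29.0 to 33.0, and of Sertoli markers 58.6 to 60.8 against 44.6 to 46.6. Lymphocyte, macrophage, platelet, erythroid and germ cell sums did not pass 4.50 in any library. The part of these markers in the levels below was not tested. In bulk RNA, fewer cells of a type and less RNA per cell cannot be told apart.

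Rasgrp3 had a signal of 25.5, 26.9 and 30.9 in DMSO replicates 1 to 3 and of 4.39, 2.65 and 2.31 in SAG replicates 1 to 3. The lowest DMSO library lay several times above the highest SAG library, which was replicate 1. The means were 27.8 ± 2.79 and 3.12 ± 1.12, an 8.91-fold lower level with SAG that left 11.2% of the DMSO level, from 1747 reads against 83. Its log2 fold change, the SAG mean minus the DMSO mean of log2(signal + 1), was -2.83, the lowest of all genes tested. The gene spans 93.2 kb on the plus strand at chr17:75435896-75529054 (GRCm38).

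Scel had a signal of 7.83, 5.13 and 7.50 with DMSO and of 0.110, 0.424 and 0.128 with SAG. The SAG values stood for 1, 4 and 1 reads, against 189, 111 and 133 reads in the DMSO libraries. All SAG libraries were therefore near the limit of detection, while every DMSO library was well above it. The means of 6.82 ± 1.47 and 0.221 ± 0.176 differed 30.9-fold. The pooled reads, 433 against 6, gave a ratio of 29.9 with an exact 95% interval of 13.6 to 82.0. That interval covers counting error only. It allows neither for the spread between libraries nor for the choice of Scel by this contrast, so it is not a test. Because the pseudocount of 1 exceeds the SAG signal, the log2 fold change of -2.67 understates this ratio. Scel spans 99.5 kb at chr14:103513342-103612797 on the plus strand.

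Limch1 was measured at 67.0, 56.4 and 65.5 with DMSO and at 16.7, 11.8 and 11.2 with SAG. The groups were far apart, and SAG replicate 1 was again the highest of its group. The means were 63.0 ± 5.72 and 13.2 ± 3.03, 4.77-fold lower with SAG, from 4001 and 350 reads. The log2 fold change was -2.19. Limch1 spans 311 kb at chr5:66745827-67057158 on the plus strand.

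Flrt2 had a signal of 64.3, 63.2 and 63.5 with DMSO and of 12.4, 15.9 and 15.4 with SAG. The DMSO libraries were nearly equal, and in contrast to Rasgrp3 and Limch1 it was SAG replicate 1 that was lowest. The means of 63.7 ± 0.557 and 14.6 ± 1.89 gave a 4.37-fold lower level with SAG and a log2 fold change of -2.06, from 4045 and 383 reads. The gene spans 93.0 kb at chr12:95692226-95785215 on the plus strand.

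Galnt18 was measured at 46.7, 42.0 and 53.8 with DMSO and at 10.5, 10.2 and 11.7 with SAG. The SAG libraries lay close together and far below all DMSO libraries. The means were 47.5 ± 5.96 and 10.8 ± 0.791, 4.40-fold lower with SAG, with a log2 fold change of -2.03 and 2989 and 283 reads. Galnt18 lies on the minus strand at chr7:111471661-111779977 and spans 308 kb.

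Ordered by log2 fold change from the lowest over all genes tested, the 5 genes took ranks 1, 2, 5, 8 and 10. Tll1, at rank 12 and so just outside the lowest 10, had a log2 fold change of -1.98. With any 1 library left out, the fold was 7.89 to 11.2 for Rasgrp3, 24.7 to 57.2 for Scel, 4.43 to 5.49 for Limch1, 4.07 to 4.58 for Flrt2 and 4.10 to 4.65 for Galnt18. No library of one group overlapped the other group in any of the 5, which the choice of these genes fixes, and 26.8% of all genes tested had every SAG library below every DMSO library (21.2% had every SAG library above). The genes are long: their spans of 93.0 to 311 kb compare with a median of 24.4 kb and a 90th percentile of 128 kb over the 12062 tested genes with a GENCODE span, and Limch1 and Galnt18 lay above that percentile.

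**Figure D1:**
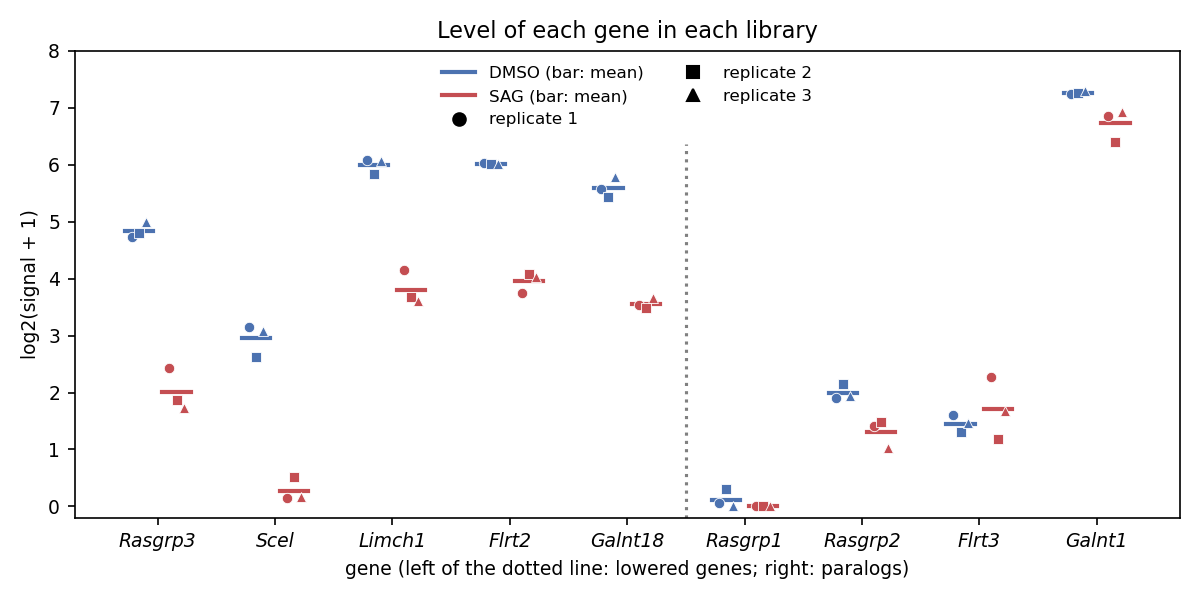
Level of the 9 genes in each of the 6 libraries as log2(signal + 1), with DMSO in blue, SAG in red, a bar for the group mean and a marker shape for the replicate number. Left of the dotted line the 5 lowered genes show no overlap between groups, and right of it Flrt3 overlaps between groups while Rasgrp2 and Galnt1 sit lower with SAG.

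The paralogs were not chosen by their own change and were tested in the limma fit over all genes. Of the 3 tested, 2 were called lower and 0 higher at a Benjamini-Hochberg adjusted p under 0.05, against 16.6% and 12.9% of all genes tested. Rasgrp1, known for Ras activation in T cells, gave 1, 5 and 0 reads with DMSO and 0 in each SAG library. With both groups near the floor of 3 reads per library, no fold is given. The 8 lymphocyte markers summed to a signal of 0.620 to 1.80, with Cd3d, Cd8a and Il7r at 0 in every library.

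Rasgrp2, known in platelets as the exchange factor that activates Rap1, had a signal of 2.73, 3.42 and 2.82 with DMSO and of 1.65, 1.80 and 1.03 with SAG. All SAG libraries were below all DMSO libraries, from 190 reads in all against 40. The means of 2.99 ± 0.374 and 1.49 ± 0.410 differed 2.005-fold, with a log2 fold change of -0.69 (SE 0.22, 95% interval -1.18 to -0.20, limma adjusted p = 0.0401). The call was lost when any 1 library except SAG replicate 2 was left out, with adjusted p from 0.0553 without SAG replicate 1 to 0.154 without DMSO replicate 2. It was also lost with scaling by library totals and with DESeq2, at adjusted p = 0.0743 and 0.0528. Of the 6 platelet and megakaryocyte markers, Pf4, Gp9, Ppbp and Gp6 were at 0 in every library. The list summed to 1.99 to 3.15 with DMSO and 3.30 to 4.50 with SAG, all from Itga2b and Gp1ba.

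Flrt3 had a signal of 2.03, 1.48 and 1.75 with DMSO and of 3.84, 1.27 and 2.18 with SAG. The groups overlapped, since SAG replicate 1 was the highest of all libraries and SAG replicate 2 the lowest. The means were 1.75 ± 0.275 and 2.43 ± 1.30, and the log2 fold change of 0.25 did not pass the test (SE 0.29, 95% interval -0.39 to 0.90, limma adjusted p = 0.534). Without SAG replicate 1 it was -0.029. Flrt3 lies inside Macrod2 on the opposite strand, and Macrod2 was at 1.40 ± 0.745 and 1.22 ± 0.511. The strand setting of the authors' counting is not given in the sources used here, so reads of the 2 genes may not have been kept apart.

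Galnt1, a broadly acting starter of O-glycosylation, was measured at 150.2, 152 and 155 with DMSO and at 115, 83.6 and 119.8 with SAG. Every SAG library was lower than the DMSO libraries, and SAG replicate 2 was the lowest. The means of 153 ± 2.46 and 106 ± 19.7 differed 1.44-fold, with a log2 fold change of -0.54 (SE 0.14, 95% interval -0.85 to -0.23, limma adjusted p = 0.0174). Leaving out DMSO replicate 1, 2 or 3 moved the adjusted p to 0.0663, 0.0673 or 0.0743, and the call was lost.

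Windows around the transcript starts were available for 7 of the 9 genes, 11 windows in all, from RefSeq on GRCm38.p6. The 250 bases before the first listed start are shown for 4 of the 5 lowered genes, as the sequences next to which these transcripts begin. They lie at chr17:75435655-75435904 for Rasgrp3, chr14:103513091-103513340 for Scel, chr5:66745639-66745888 for Limch1 and chr12:95691976-95692225 for Flrt2, all on the plus strand. Capitals mark matches on either strand to the motifs searched, which are named after the sequences.
Rasgrp3: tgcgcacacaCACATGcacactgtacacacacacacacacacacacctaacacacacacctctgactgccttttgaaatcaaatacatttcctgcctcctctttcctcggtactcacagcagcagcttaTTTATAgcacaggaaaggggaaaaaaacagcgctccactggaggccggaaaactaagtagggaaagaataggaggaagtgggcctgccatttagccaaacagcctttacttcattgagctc
Scel: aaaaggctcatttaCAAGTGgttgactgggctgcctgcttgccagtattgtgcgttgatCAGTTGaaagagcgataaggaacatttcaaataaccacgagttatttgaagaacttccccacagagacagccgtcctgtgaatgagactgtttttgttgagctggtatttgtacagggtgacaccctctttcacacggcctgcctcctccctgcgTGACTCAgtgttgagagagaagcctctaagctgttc
Limch1: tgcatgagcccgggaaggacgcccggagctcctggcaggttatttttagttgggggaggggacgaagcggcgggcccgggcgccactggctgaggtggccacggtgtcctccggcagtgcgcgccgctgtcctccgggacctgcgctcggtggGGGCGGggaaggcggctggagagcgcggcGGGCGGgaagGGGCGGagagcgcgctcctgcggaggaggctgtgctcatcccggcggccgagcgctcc
Flrt2: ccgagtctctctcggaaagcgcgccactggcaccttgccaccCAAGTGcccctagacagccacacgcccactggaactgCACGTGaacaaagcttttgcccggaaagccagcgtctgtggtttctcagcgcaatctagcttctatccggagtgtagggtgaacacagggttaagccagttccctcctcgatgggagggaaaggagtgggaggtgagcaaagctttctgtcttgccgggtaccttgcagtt

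The motifs were the GLI site GACCACCCA, the TEAD site GGAATG, the AP-1 site TGANTCA, the SP-type GC box GGGCGG, the TATA box TATAAA and the E-box CANNTG, each counted separately on both strands of the windows from 250 bases before to 50 bases after a start, so that matches of different motifs may overlap. The GLI letters were in 0 of the 11 windows, and in 0.253% of all 32851 RefSeq windows of the same length. Scel held an AP-1 match that begins 36 bases before the start, a motif present in 7.81% of all windows. Rasgrp3 held TATA box letters on the minus strand 121 bases before the start shown, against 13.6% of all windows, and its other start had a TEAD match 140 bases before it, against 14.7%. Limch1 was the GC-rich one of those shown, with 74.4% G and C in the bases before its first start. Its GC boxes there begin 97, 68 and 58 bases before the start, a motif in 35.7% of all windows. Starts 2 and 3 of Limch1 had 39.2% and 47.2% G and C and 0 GC boxes. Start 3 had TATA box letters on the minus strand 76 bases before it. Flrt2 showed E-box matches alone, a motif in 72.3% of all windows, and 57.2% G and C, while Rasgrp3 and Scel both had 47.6%. Among the paralogs, Rasgrp2 carried 6 GC boxes at its first start, Rasgrp1 carried 1, and Flrt3 had E-boxes alone. A match is a description of letters and not a site, and the absence of a match says only that the letters are not in these windows.

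Within the RasGRP family, levels were compared per kb of the longest protein-coding transcript. Rasgrp3 was the highest with DMSO, at a signal per kb of 5.89 ± 0.592, followed by Rasgrp2 at 1.30 ± 0.163, Rasgrp4 at 0.848 ± 0.108 and Rasgrp1 at 0.0174. With SAG, Rasgrp4, known from mast cells, was at 0.895 ± 0.066, Rasgrp3 at 0.661 ± 0.237 and Rasgrp2 at 0.650 ± 0.178 per kb, and the last 2 differed by less than their SD. Rasgrp3 thus made up 73.0 ± 3.27% of the summed family level with DMSO and 29.6 ± 7.02% with SAG. Per kb of all annotated exons, a length tried after the data were seen, these shares were 84.4% and 40.2%, and Rasgrp4 then stood above Rasgrp2 in both groups. The signal of Rasgrp4, 3.92 ± 0.501 and 4.13 ± 0.303, did not pass the test (limma adjusted p = 0.811).

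Flrt2 held 94.5 ± 0.787% of the summed FLRT level per kb with DMSO and 74.3 ± 10.6% with SAG, and stayed the first of the 3 FLRT genes in both groups. Its level was 8.97 ± 0.078 per kb with DMSO and 2.05 ± 0.266 with SAG. Flrt3 was at 0.441 ± 0.069 and 0.612 ± 0.328 per kb, and Flrt1, too low to be tested, at 0.084 and 0.103.

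Galnt18 was the fifth of 18 family genes per kb with DMSO, at 18.4 ± 2.31, and the seventh with SAG, at 4.19 ± 0.307. Its share of the family sum was 9.78 ± 1.49% and 3.06 ± 0.140%. Above it with DMSO stood Galnt2 at 45.3, Galnt16 at 41.3, Galnt1 at 37.1 and Galnt10 at 28.3 per kb, and next below it Galnt11 at 10.5 and Galnt4 at 5.86. Per kb of all annotated exons, Galnt18 was the fifth with DMSO and the sixth with SAG, its shares were 12.7% and 4.08%, and Galnt4 stood above Galnt11.

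**Figure D2:**
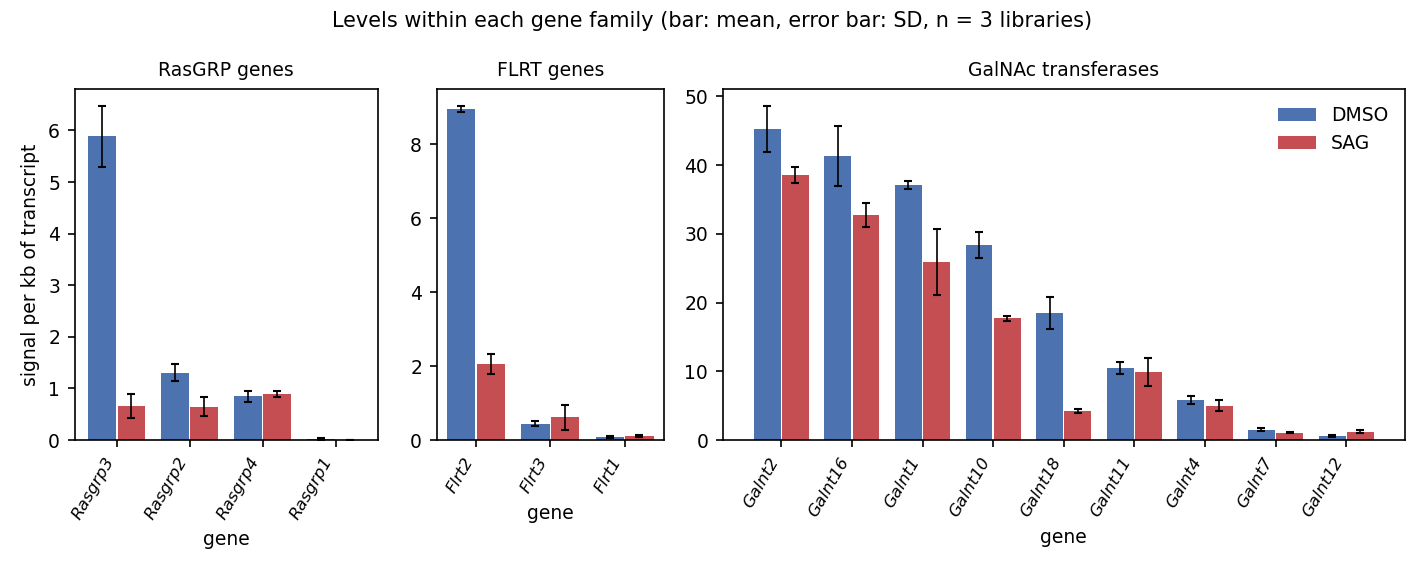
Mean signal per kb of the longest protein-coding transcript for the RasGRP genes, the FLRT genes and the GalNAc transferases, with DMSO in blue, SAG in red and error bars for the SD over 3 libraries. Rasgrp3, Flrt2 and Galnt18 show the wide gaps between groups by which they were chosen, and Rasgrp4 has nearly equal bars.

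Around Rasgrp3, the list of Ras activators also held exchange factors for Rap and Ral, so its counts do not describe Ras activators alone. Of its 9 tested genes besides Rasgrp3, 1 was called higher and 2 lower, near the 12.9% and 16.6% of all genes tested. Among the tested RasGRP and Sos genes besides Rasgrp3, Rasgrp2 was called lower, and Rasgrp4, Sos1 and Sos2 did not pass the test. The median log2 fold change of the 9 genes was -0.0094, against -0.03 over all genes tested. The lower ones were Rasgrp2 and Rapgef1, an exchange factor for Rap1, which fell from a signal of 224 to 132 (limma adjusted p = 3.7e-04). Ralgds, an exchange factor for Ral, rose from 21.7 to 34.3 (limma adjusted p = 0.00412). With Rasgrp3 included, the list had 3 lower and 1 higher in the main fit, and 2 lower and 3 higher without SAG replicate 3. Scaling by library totals, which moves the median of all genes to 0.10, gave 2 lower and 2 higher. Over all genes tested, 2084 were lower and 1625 higher, 3373 and 2463 without SAG replicate 3, and 1259 and 2477 with library totals. Without 1 DMSO replicate they were 1086 to 1136 and 901 to 969. List counts under these settings, here and below, are to be read beside those. Of 11 tested Ras inactivators, 2 were called lower, near the 16.6% of all genes tested, and 0 higher, namely the GTPase-activating proteins Rasal2, from 30.3 to 18.3, and neurofibromin, Nf1, from 62.6 to 45.8 (limma adjusted p = 0.00879 and 0.0308). Without DMSO replicate 3 neither was called, and without SAG replicate 3 the list had 3 lower and 2 higher.

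Among 14 Ras and Rap proteins, the substrates of the exchange factors, 5 were called lower and 0 higher, against 16.6% and 12.9% of all genes tested, with a median of -0.25. They included Rap2c, from 45.2 to 27.1, Mras, from 35.9 to 26.5, and Rala, from 90.9 to 67.3 (limma adjusted p = 0.00358, 0.0221 and 0.0252). The lower count was 2 without each DMSO replicate and with scaling by library totals, 3 without SAG replicate 1 or 2, and 9 without SAG replicate 3. Over all genes tested the lower count moved the same way, from 2084 to between 1086 and 1136 without 1 DMSO replicate. It was 1259 with library totals, 1949 and 1905 without SAG replicate 1 or 2, and 3373 without SAG replicate 3. Of 23 tested genes that supply or answer to diacylglycerol, 2 were called higher and 4 lower, near the 12.9% and 16.6% of all genes tested. The protein kinase D gene Prkd2 rose from 11.5 to 19.9 and the diacylglycerol kinase gene Dgka from 11.6 to 18.0, while another diacylglycerol kinase gene, Dgkh, fell from 15.1 to 8.67 and the phospholipase C gene Plcb4 from 63.7 to 38.6 (limma adjusted p = 0.00672, 0.017, 0.00742 and 0.0113). Scaling by library totals gave 6 higher and 3 lower. Without SAG replicate 3 there were 5 higher and 4 lower, and over all libraries left out in turn the counts ran from 1 to 5 higher and from 2 to 5 lower, with 2 lower without any 1 of the DMSO replicates or SAG replicate 1, and 1 higher without DMSO replicate 2 or 3.

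Scel and Limch1 were set beside other LIM domain genes. Of 27 tested genes besides these 2, 12 were called lower and 7 higher, with a median of -0.27, against 16.6% and 12.9% of all genes tested. Pdlim3, which binds alpha-actinin at actin filaments, rose 2.99-fold, from a signal of 124 to 371, and testin, Tes, a focal adhesion protein, fell from 133 ± 6.67 to 59.3 ± 4.84 (limma adjusted p = 2.25e-05 and 9.45e-05). The actin-binding Lima1 fell from 222 to 109 and the adhesion protein gene Lpp from 650.4 to 305 (limma adjusted p = 1.47e-04 and 2.01e-04). The relatives Lmo7 and Zfp185 did not pass the test, with Lmo7 at 4.65 ± 0.817 and 4.64 ± 1.18 and Zfp185 at 1.12 ± 0.376 and 1.31 ± 0.927 (limma adjusted p = 0.971 and 0.896). With Scel and Limch1 included, the list had 29 genes tested in the main fit and 26 to 30 over the alternatives. Over those alternatives 12 to 16 genes were called lower and 4 to 9 higher. The smooth muscle markers, many of them actin cytoskeleton genes, were lower in the same libraries, and their part in this count was not tested.

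Of 15 tested genes for non-muscle myosin II and its regulators, the machinery that LIMCH1 is known to act on, 7 were called lower and 0 higher, with a median of -0.27, against lower calls for 16.6% of all genes tested and 20.8% of those whose mean signal was 15 or more. The myosin phosphatase subunit gene Ppp1r12a fell from 189 to 90.9, the heavy chain gene Myh9 from 2975 to 1818, and the kinase genes Rock1 from 95.1 to 55.7 and Rock2 from 402 to 255 (limma adjusted p = 8.1e-04, 8.55e-04, 0.00113 and 0.00132). The lower count was 4 with scaling by library totals or without DMSO replicate 1, and 12 without SAG replicate 3. Over all genes tested it was 1259, 1093 and 3373 under these settings, against 2084 in the main fit. Genes of the cornified envelope stayed near the background of 16.6%: 7 were tested and 1 was called lower, the protease inhibitor gene Cstb, from 84.5 to 57.8 (limma adjusted p = 0.0112), and Ivl, Tgm1, Sprr1b and Csta1 were at 0 in every library. The Cstb call was lost without DMSO replicate 1 or 3, and without SAG replicate 1 or 3 the list had 3 and 4 lower.

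The FLRT genes and their receptors had 14 tested members besides Flrt2, 3 called higher and 2 lower, against 12.9% and 16.6% of all genes tested, with a median of 0.29. The lower ones were Unc5d, a receptor that FLRT2 binds, from 6.11 ± 0.771 to 1.70 ± 0.527, and Robo1, a Slit receptor, from 54.7 to 28.5 (limma adjusted p = 0.00135 and 0.00654). Fgfr2, a fibroblast growth factor receptor, rose 1.63-fold from 56.5 to 92.4, and Tenm4, a teneurin, rose 3.73-fold from 4.83 to 18.0 (limma adjusted p = 9.93e-04 and 0.00113). The third higher gene was the netrin receptor gene Unc5c, from 7.46 to 12.9 (limma adjusted p = 0.00892). Unc5b, the most abundant UNC5 receptor here by signal, was at 835 ± 20.5 and 724 ± 17.0 and did not pass the test (limma adjusted p = 0.102). With Flrt2 included, the list had 7 higher and 4 lower without SAG replicate 3, and 2 higher and 3 lower without DMSO replicate 1.

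Of the 8 tested GalNAc transferases besides Galnt18, 3 were called lower and 0 higher, against 16.6% and 12.9% of all genes tested, and their median was -0.28. Besides Galnt1 these were Galnt10, from 134 to 83.6, and Galnt16, from 174 to 138 (limma adjusted p = 0.00119 and 0.0472). Galnt2 was at 186 ± 13.9 and 159 ± 4.86 and did not pass the test (limma adjusted p = 0.106). With Galnt18 included, the lower count was 4, 2 without any 1 of the DMSO replicates and 6 without SAG replicate 3. Over all genes tested the lower count was 2084, 1086 to 1136 and 3373 under the same settings. Of 10 tested enzymes that extend O-glycans, 1 was called, near the 12.9% of all genes tested that were higher, the sialyltransferase gene St6galnac3, which rose from 2.40 to 5.36 (limma adjusted p = 0.0124). It was lost without DMSO replicate 2, and 4 were called higher without SAG replicate 3.

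**Figure D3:**
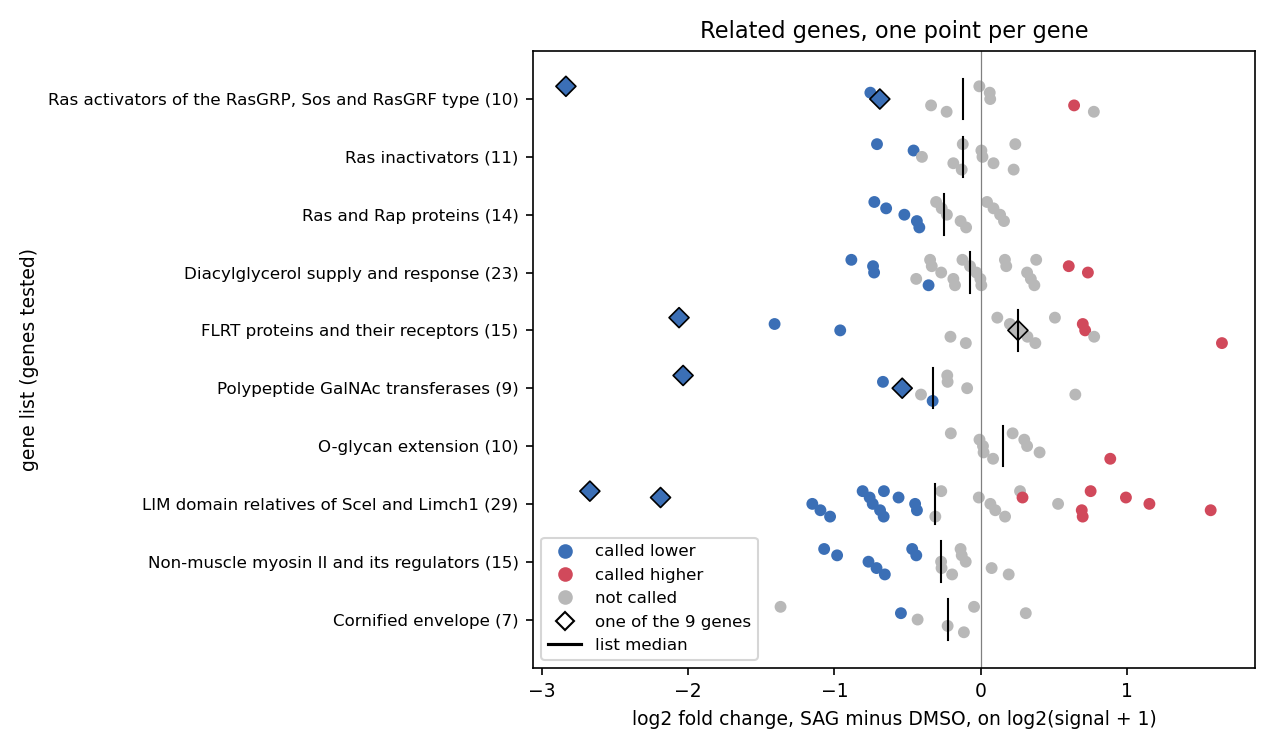
Log2 fold change, SAG minus DMSO on log2(signal + 1), of each tested gene in 10 lists of related genes, with called genes in blue (lower) or red (higher), others in grey, diamonds for members of the 9 genes and a black tick for each list's median. Rasgrp3, Scel, Limch1, Flrt2 and Galnt18, chosen by this value, lie left of the rest of their lists. The myosin II list has 7 of 15 genes called lower and 0 higher, against 16.6% and 12.9% of all genes tested. Of genes with a mean signal of 15 or more, 20.8% were called lower.

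The nearest tested protein-coding gene on each side of the 5 lowered genes was then read from the GENCODE map, a choice by position made after the main values were known. Of these 10 neighbours 7 were called lower and 0 higher, with a median log2 fold change of -0.52. The background for lower calls was 16.6% of all genes tested, 20.8% of those whose mean signal was 15 or more and 27.1% of those that span at least 90 kb. The cut of 90 kb lies just below the spans of the lowered genes. The spans of the neighbours were not compared, so that share is not matched to them. Around Rasgrp3, Ltbp1 fell from a signal of 789.7 to 515 at a distance of 43.4 kb and Fam98a from 76.7 to 51.0 at 8.03 kb (limma adjusted p = 0.00104 and 0.00611). Beside Limch1, Uchl1 fell from 183 to 95.3 and Tmem33 from 47.1 to 28.8 (limma adjusted p = 9.37e-04 and 0.00474). Beside Galnt18, Usp47 fell from 252 to 162 and Eif4g2 from 1266 to 922 (limma adjusted p = 8.77e-04 and 0.00833). Beside Scel, Mycbp2 fell from 97.4 to 72.9 (limma adjusted p = 0.0328), while Slain1 had a log2 fold change of 0.07 and did not pass the test (limma adjusted p = 0.889). The neighbours of Flrt2, Sel1l and Galc, are 3843 and 2417 kb away and did not pass the test, at log2 fold changes of -0.14 and -0.15 (limma adjusted p = 0.311 and 0.426). Uchl1 and Tmem33 lie 58.6 and 203 kb from Limch1, and Usp47 and Eif4g2 244 and 389 kb from Galnt18. Mycbp2 and Slain1 lie 167 and 37.4 kb from Scel. The log2 fold changes of the neighbours ran from -0.95 to 0.07. The count of lower neighbours was 5 without DMSO replicate 2 and 5 to 7 over the alternatives, and 4 of the 8 neighbours of the paralogs were called lower and 0 higher.

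**Figure D4:**
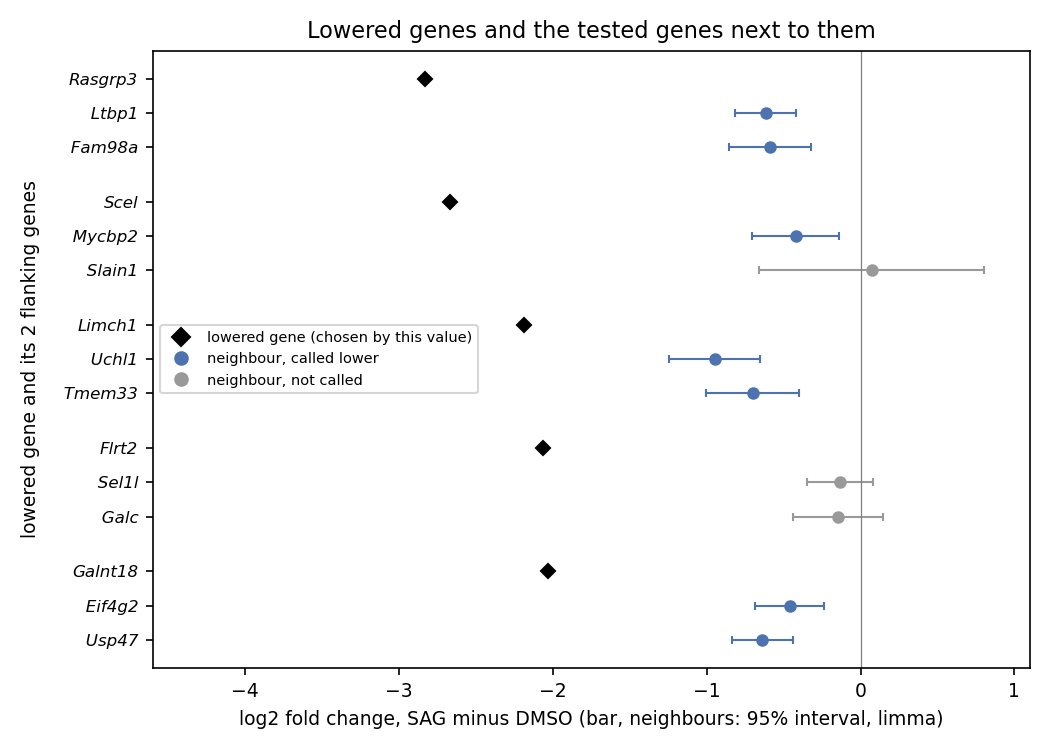
Log2 fold change, SAG minus DMSO, of the 5 lowered genes (black diamonds) and of the nearest tested protein-coding gene on each side (circles with the 95% limma interval, blue where called lower, grey where not called). The diamonds lie from -2.83 to -2.03 and the neighbours from -0.95 to 0.07. Of the 10 neighbours 7 are called lower, against 16.6% of all genes tested and 20.8% of those with a mean signal of 15 or more.

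Genes with the most similar pattern were found by the Euclidean distance between centred log2(signal + 1) profiles over the 6 libraries, among the 10188 tested genes whose mean signal was 5 or more, as a description only. This distance includes the contrast that chose the 5 genes, so the choice fixes that other strongly lowered genes come out as near. Those named here ranked from 3 (Npnt) to 21 (Slc4a4) from the lowest log2 fold change. Nearest to Rasgrp3 were Npnt (nephronectin, an integrin ligand) at a distance of 0.495 and Ccl17 (a chemokine) at 0.989. The same 2 genes were nearest to Scel, in the order Ccl17 at 0.562 and Npnt at 0.851. Nearest to Limch1 was the metalloprotease gene Tll1 at 0.262, then the prostaglandin synthase gene Ptgs2 at 0.390 and Npnt at 0.434. Flrt2 was closest to Spp1 (osteopontin) at 0.412, Sdpr (a caveolar protein) at 0.415 and the bicarbonate transporter gene Slc4a4 at 0.448, and Galnt18 to Ptgs2 at 0.169, Ankrd1 at 0.282 and Sdpr at 0.355. Ptgs2, nearest of all to Galnt18, had a signal of 88.7, 76.4 and 100.4 with DMSO and of 21.4, 18.5 and 20.3 with SAG. It shares with Galnt18 the lowest value at replicate 2 in both groups. Among the 5 genes themselves, Flrt2 and Galnt18 had the most similar profiles, at 0.367, and Rasgrp3 and Flrt2 the least similar, at 1.24.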

How the data were processed

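Per the labels' protocols, an RNeasy Micro kit was used for RNA and the NEBNext Ultra II Directional kit for libraries. Per the submitters' processing notes, the build was GRCm38 (mm10) and the tools were edgeR (version given as 2.2.1), STAR, featureCounts 2.0.0 and Trim Galore 0.6.4. The annotation and the strand setting of counting are not given in the sources used here. From these steps the authors deposited 1 table of normalized signal by gene symbol, called CPM, whose 6 column sums run from 932712 to 1055620. In every column 100% of values were whole multiples of 1 step (tolerance 0.01), so whole reads could be recovered and the signal was treated as a scaled CPM. The 92 spike-in rows, at most 0.0157% of a library's reads, were left out of tests.

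Here, log2(signal + 1) was tested with limma 3.58.1 (eBayes with trend, R 4.3.3) by group on the 12550 genes whose mean signal was 1 or more, with Benjamini-Hochberg adjustment over all of them and calls at an adjusted p under 0.05. The log2(signal + 1) scale understates changes of low genes, and plain folds are ratios of mean signals. On counts simulated for 12472 genes of this comparison, the step recovered 22.2% of 99 genes changed 1.5-fold and 67.7% of 99 at 2-fold, with 4.30% false calls. Only those genes were changed in the simulation, whereas 29.6% of all genes tested were called in the data, so the rates may differ there. The members and lists were chosen with earlier results of these data known. Beyond the 9 genes, named genes are the called members of each list (at most the 4 with the smallest p), fixed close relatives, and the 3 nearest profiles of each lowered gene. Not every gene named by this rule is reported here. Hras, Plcg1 and Plcg2 were called too but are not described, and Robo1, Unc5b, Unc5c, Lima1, Lpp and the neighbours by position were named after their values were seen. Alternatives were pseudocounts of 0.5 and 0.1, a filter at 5 or none, scaling by library totals, limma without trend, a replicate block, each library left out, and edgeR 4.0.16 and DESeq2 1.42.0 on the recovered reads. Thinning DMSO reads to the SAG depth and the length of all annotated exons were added after the data were seen. Coordinates are from GENCODE on GRCm38. PCR reads without molecular identifiers are not independent molecules, so intervals and floors cover counting error only. A comparison of protein sequences that had been planned was not run.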

Additional observations from a re-analysis of the deposited data

Results flagged for a closer look

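Synthetic spike-in RNAs, which lie outside the gene measurements, gave 1205 reads in SAG replicate 3. SAG replicate 1 had 111 such reads, SAG replicate 2 had 54 and each DMSO library had 0. None of the levels above uses these rows. Without SAG replicate 3 the log2 fold changes of Rasgrp3, Scel, Limch1, Flrt2 and Galnt18 all remained below 0, within the ranges given next. The groups do not overlap in these genes, which fixes that sign whichever library is left out. It is therefore no check on SAG replicate 3.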

How the results depend on the processing

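Over the alternatives the log2 fold change ran from -3.16 to -2.69 for Rasgrp3, -2.36 to -2.05 for Limch1, -2.13 to -1.92 for Flrt2 and -2.14 to -1.90 for Galnt18. Scel, left out by the filter at 5, ran from -4.88 to -2.57, with -3.35 and -4.54 at pseudocounts of 0.5 and 0.1, -4.86 with edgeR and -4.88 with DESeq2, since its SAG signal is below the pseudocount. The Rasgrp2 call was lost with scaling by library totals (-0.59) and DESeq2 (-0.96); it ran from -0.78 to -0.55 with 1 library left out, Galnt1 from -0.63 to -0.37, and Flrt3 from -0.029 (without SAG replicate 1) to 0.52. Rasgrp1 entered the fit without a filter alone, at -0.12 (limma adjusted p = 0.444). Scaling by library totals gave 1259 genes lower and 2477 higher, against 2084 and 1625, and leaving out 1 library 1086 to 3373 lower and 901 to 2463 higher; the cause was not tested. The SAG depth limits what can be said of Scel, Rasgrp1, Rasgrp2 and Flrt3.

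Same-numbered libraries did not deviate together (correlations -0.0231, 0.0332 and -0.000173), and the main fit did not pair them. Whether they were paired by culture or day is not stated, and these correlations cannot decide it. With a replicate block 1976 genes were lower and 1549 higher, and the call of Rasgrp2 (-0.69) was lost at a limma adjusted p of 0.0587.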
